A study of Mus musculus with 4 samples.

Results

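The 10 genes described here serve the display of peptides on MHC class I molecules. They are the heavy chains H2-K1, H2-D1 and H2-T23, the light chain B2m, the peptide transporter chains Tap1 and Tap2, the loading factor Tapbp, and the immunoproteasome subunits Psmb8, Psmb9 and Psmb10. They were taken by symbol from the 55471 genes listed in each count table, and all 10 were found. The study fed mice cuprizone, a copper chelator that kills oligodendrocytes and strips myelin, and sequenced RNA bound to tagged astrocyte ribosomes. There were 2 libraries from cuprizone-fed mice and 2 from mock mice on normal chow, all labelled brain, batch 1 and 3 weeks. All 4 were of the genotype GFAP-Cre+/- Rpl22HA/wt, in which Cre driven by the GFAP promoter switches on an HA tag on 1 allele of the ribosomal protein Rpl22. The series' design text describes male mice aged 8 to 9 weeks, 0.2% cuprizone by weight and micro-dissected corpus callosum, with collection at 5, 5.5 and 7 weeks, so its times differ from the 3 weeks of the sample labels.

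Class I molecules show fragments of a cell's own proteins to CD8+ T cells. The proteasome cuts proteins in the cytosol, the transporter made of Tap1 and Tap2 carries the peptides into the endoplasmic reticulum (ER), and tapasin, the product of Tapbp, holds the transporter next to an empty heavy chain paired with B2m until a peptide fits. Interferon gamma raises most of these genes and makes Psmb8, Psmb9 and Psmb10 take the place of the constitutive catalytic subunits Psmb5, Psmb6 and Psmb7. In the healthy brain the pathway is low in neurons and higher in microglia and endothelium, and H2-D1, H2-T23 and Psmb8 are widely used markers of astrocytes activated by lipopolysaccharide.

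The libraries held 21209517 to 23822620 counts, and the limit that a count of 0 allows was 0.126 to 0.141 CPM (the counts-per-million unit, on library totals), for counting error only. Astrocyte markers, all 10 of which were detected in every library, made up 0.553% and 0.606% of counts in cuprizone libraries and 0.922% and 0.882% in mock libraries. Aldoc was the largest part of each of these sums. By gene, 5 of the 10 were lower in both cuprizone libraries than in both mock libraries, 0 were higher and the others overlapped. The 10 neuron markers made up more of the counts, at 1.47% and 1.48% in cuprizone libraries against 1.30% and 1.33% in mock libraries. Snap25 made up most of each neuron sum, and by gene 5 of the 10 were higher in both cuprizone libraries and 3 lower. Of all 15816 genes tested, 4060 were higher and 2995 lower by the same rule. In bulk samples of this kind, fewer cells of a type and less RNA per cell cannot be told apart.

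Most of the members lie in the MHC on chromosome 17 of the mouse build GRCm38. H2-K1 (ENSMUSG00000061232) spans chr17:33996017-34000347, H2-D1 (ENSMUSG00000073411) chr17:35262730-35267499 and H2-T23 (ENSMUSG00000067212) chr17:36029773-36032855. Psmb9 (chr17:34181987-34187764), Tap1 (chr17:34187553-34197225), Psmb8 (chr17:34197721-34201454) and Tap2 (chr17:34203527-34216321) sit side by side, and Tapbp (chr17:33915899-33929292) lies beside H2-K1. Outside the MHC are B2m (ENSMUSG00000060802) at chr2:122147686-122153083 and Psmb10 (ENSMUSG00000031897) at chr8:105935735-105938444. Each count covers a gene as a whole, so exons, introns and untranslated regions cannot be read apart.

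The sequences before the start sites of H2-K1 and B2m are shown because these genes, with H2-D1, had the smallest unadjusted p values of the 10. They come from RefSeq on GRCm38.p6, are written 5′ to 3′ on the gene's strand, and end at the last base before the annotated first exon. Capitals mark matches, on either strand, to the interferon response element (searched as GAAANNGAA), to the cores GGGATTCCC and GGACTTTCC of NF-kB motifs, and to the CCAAT box, to which the factor NF-Y binds. Overlapping matches were allowed, and none occurred here. The H2-K1 window is chr17:34000348-34000597 (minus strand) and the B2m window chr2:122147437-122147685 (plus strand).
H2-K1: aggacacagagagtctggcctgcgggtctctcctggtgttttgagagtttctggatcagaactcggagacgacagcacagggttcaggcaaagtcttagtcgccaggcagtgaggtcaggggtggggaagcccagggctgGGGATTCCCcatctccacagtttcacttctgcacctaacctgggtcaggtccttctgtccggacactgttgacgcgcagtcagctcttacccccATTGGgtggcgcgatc
B2m: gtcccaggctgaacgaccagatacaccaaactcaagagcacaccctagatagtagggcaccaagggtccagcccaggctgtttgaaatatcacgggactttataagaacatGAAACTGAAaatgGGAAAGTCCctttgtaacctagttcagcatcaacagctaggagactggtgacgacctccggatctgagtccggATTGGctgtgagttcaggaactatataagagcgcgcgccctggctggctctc

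Shorter stretches compare the heavy chains. The NF-kB match of H2-K1 (chr17:34000439-34000467, minus strand) and that of H2-D1 (chr17:35262914-35262942, plus strand) are shown in 29 bases each, of which 28 were the same. H2-T23 (chr17:36032806-36032834, minus strand) is shown at its match to GAAANNGAA, which reads on the opposite strand. The windows searched lie before the start sites of RefSeq, and the H2-D1 and H2-T23 stretches fall inside the gene spans given above, unlike that of H2-K1.
H2-K1 site: cccagggctgGGGATTCCCcatctccaca
H2-D1 site: cccagggctgGGGATTCCCcatctcctca
H2-T23 site: tcctactgctTTCTCTTTCataaagacac

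Of the 32851 windows of 250 bases searched, 0.301% held GGGATTCCC, 0.283% held GGACTTTCC, 7.13% held GAAANNGAA and 33.8% the CCAAT box. Among the 9 members with a window, GGGATTCCC was in 2, GGACTTTCC in 1, GAAANNGAA in 2 and the CCAAT box in 7. Only this form of the interferon response element was searched for, so a window without a match may still hold the element. A STAT site searched as TTCNNNGAA was in 1 member, Psmb8, and in 7.02% of all windows. Of the 9 windows, 5 lay wholly within exons annotated by GENCODE M21 (those of H2-D1, Tap1, Tapbp, Psmb8 and Psmb9). The windows of Tap1 and Psmb9 share 225 bases. Their CCAAT match is the same site read on opposite strands, so it enters the count of members for both. In the window of Psmb10 none of these letters was found. These matches describe the letters in the windows and not binding.

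The comparison asks how the pathway's ribosome-bound RNA differed between cuprizone-fed and mock mice. The heavy chains and the light chain were lower in both cuprizone libraries than in both mock libraries. On the fitted scale they stood at about 0.314 to 0.455 of the mock level. Of the transporter and loading genes, Tap2 stood at 0.381, Tapbp at 0.649 and Tap1 at 1.57 of it. Of the immunoproteasome subunits, Psmb10, the most abundant, stood at 0.849, Psmb8 at 0.499 and Psmb9 at 0.520. For Tap1 and Psmb9 the groups overlapped. After adjustment over all 15816 genes tested, none of the 10 members was called by the edgeR quasi-likelihood test at 0.05, a rule that called 0.0822% of all genes. Before adjustment, 4 members had a p under 0.05 with a lower level in cuprizone (7.04% of all genes) and 0 with a higher one (5.73% of all genes). After adjustment DESeq2 called 3 members lower (H2-K1, H2-D1 and B2m), where it called 2.85% of all genes lower, and limma-voom 1 (B2m), where it called 0.285%. With other filters on low counts edgeR called H2-D1 and B2m lower among all genes with a count (0.588% of them lower) and B2m alone at a mean of at least 1 CPM (0.385%). All 10 members passed the filter on low counts.

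**Figure D1:**
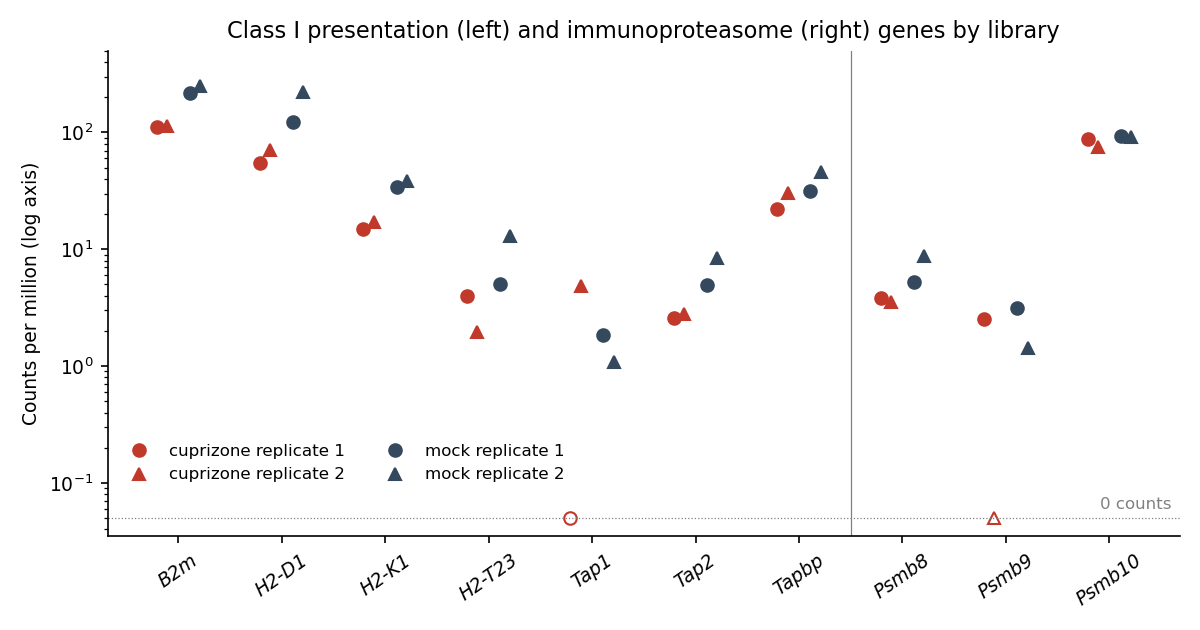
Level of each member in CPM (log axis) in the 4 libraries, circles for replicate 1 and triangles for replicate 2; open symbols on the dotted line mark a count of 0. For 8 of the 10 genes both cuprizone points lie below both mock points, with wide gaps in B2m, H2-D1 and H2-K1 and a narrow one in Psmb10.

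B2m, which is part of every classical class I molecule, was the most abundant member by counts. It had 111 and 112 CPM in cuprizone libraries against 216 and 250 CPM in mock libraries. The groups did not overlap, and the cuprizone pair lay close together. The log2 fold was -1.14 (SE 0.16, 95% interval -1.53 to -0.74), with an edgeR adjusted p of 0.106, and 6.50% of all genes tested had a lower fold. The adjusted p of B2m ran from 8.61e-07 with DESeq2 to 0.368 over its 13 alternatives, 4 of which put it past 0.05, and its log2 fold from -1.24 to -1.0.

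H2-D1 encodes a classical heavy chain that presents peptides to CD8+ T cells. It had 55.0 and 70.9 CPM in cuprizone libraries against 123 and 222 CPM in mock libraries. Every cuprizone value was below every mock value, and the mock libraries differed from each other by more than the cuprizone ones. The log2 fold was -1.52 (SE 0.31), the adjusted p from edgeR was 0.175, in a range of 1.31e-05 with DESeq2 to 0.419 over its alternatives, and the fold was -1.88 without mock replicate 1 and -1.01 without mock replicate 2.

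H2-K1, the other classical heavy chain counted here, had 14.8 and 17.3 CPM in cuprizone libraries against 34.1 and 38.6 CPM in mock libraries. Both pairs were tight and well apart. The log2 fold was -1.25 (SE 0.28), edgeR gave an adjusted p of 0.192, and over the alternatives this ran from 0.0138 with DESeq2 to 0.487. Within each library H2-D1 had 3.72 and 4.11 counts for each count of H2-K1 in cuprizone and 3.60 and 5.75 in mock, so that ratio overlapped between groups.

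H2-T23 encodes Qa-1, a non-classical heavy chain that shows leader peptides of other class I chains to NK cell receptors. It had 3.98 and 1.97 CPM in cuprizone libraries against 5.02 and 13.1 CPM in mock libraries. The groups did not overlap, but the mock values were far apart and the nearest cuprizone and mock values close. The log2 fold was -1.67 (SE 0.69), with an unadjusted p of 0.0487 and an adjusted p of 0.388 by edgeR, and the fold was -0.80 without mock replicate 2.

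Sequence that the heavy chains share limits how firmly their reads can be told apart. Of all stretches of 50 bases in the GENCODE M21 transcripts, 9.63% in H2-K1, 12.8% in H2-D1 and 13.6% in H2-T23 also occurred in a transcript of another gene, against 0 in B2m, Psmb9 and Psmb10. How the authors treated reads that map to several places, and which strand setting they used, is not given in the sources used here. On the opposite strand, B2m lies wholly inside Patl2 and Psmb10 wholly inside Gm16156, which both had 0 counts in all 4 libraries. H2-T23 lies inside A930015D03Rik, which had 7 to 11. Also on the opposite strand, Gm20496 overlaps Psmb8 and Tap2, and Gm19412 overlaps Tapbp, both at 0 in all 4 libraries. Gm15821, with 0 to 3 counts, overlaps Tap2.

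The transporter chains were scarce. Tap2 had 2.56 and 2.81 CPM in cuprizone libraries against 4.98 and 8.49 CPM in mock libraries, without overlap, with -1.39 as the log2 fold (SE 0.59, edgeR adjusted p = 0.403). Tap1 had 0 and 115 counts in the cuprizone libraries, or 0 and 4.83 CPM, against 41 and 23 counts, or 1.85 and 1.08 CPM, in mock libraries. For Tap1, 1 cuprizone library was thus the highest of the 4 and the other the lowest, and the fold of 0.65 (SE 1.84, edgeR adjusted p = 0.955) changed sign with the library left out, being -8.03 without cuprizone replicate 2 and 1.65 without cuprizone replicate 1. The count of 0 in cuprizone replicate 1 allowed up to 0.137 CPM.

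Tapbp, which encodes tapasin, had 22.3 and 30.3 CPM in cuprizone libraries against 31.2 and 46.1 CPM in mock libraries. The groups were separated by less than 1 CPM. Its log2 fold was -0.62 (SE 0.31), with an edgeR adjusted p of 0.484, and was -0.29 without mock replicate 2. Tapbp overlaps Zbtb22 on the same strand, which had 254 and 293 counts in cuprizone and 245 and 164 in mock libraries.

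The immunoproteasome subunits differed in abundance by far. Psmb10, which replaces Psmb7, had 88.6 and 75.6 CPM in cuprizone libraries against 93.3 and 90.8 CPM in mock libraries. The groups did not overlap, but the gap between them was narrower than that between the cuprizone libraries. Its log2 fold was -0.24 (SE 0.18, 95% interval -0.67 to 0.20), with an edgeR adjusted p of 0.680, and 33.3% of all genes tested had a lower fold.

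Psmb8, which replaces Psmb5, had 3.80 and 3.53 CPM in cuprizone libraries against 5.20 and 8.82 CPM in mock libraries. The cuprizone pair lay below both mock libraries. The log2 fold was -1.0 (SE 0.55, 95% interval -2.34 to 0.33), with an edgeR adjusted p of 0.528. Its interval covers both the folds of the class I chains and no difference.

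Psmb9, which replaces Psmb6, had 55 and 0 counts in the cuprizone libraries, or 2.52 and 0 CPM, against 70 and 30 counts, or 3.17 and 1.41 CPM, in mock libraries. The groups overlapped, and the fold of -0.94 (SE 1.79, edgeR adjusted p = 0.916) was 0.055 without cuprizone replicate 2, the library at 0. Psmb9 and Tap1 are neighbours whose gene bodies overlap by 212 bases on opposite strands, and the cuprizone library with 0 counts was a different one for each. A count of 0 in 1 cuprizone library beside at least 50 in the other occurred in 116 of the 15816 genes tested, and in 57 for the mock pair.

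**Figure D2:**
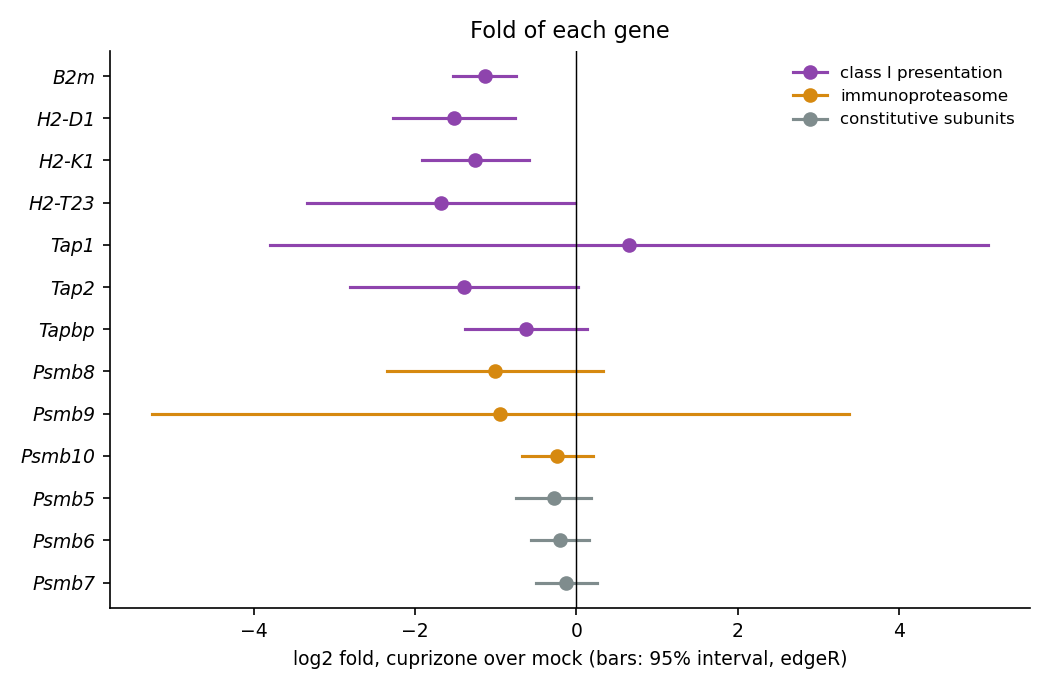
Log2 fold, cuprizone over mock, of each member and of the constitutive subunits Psmb5, Psmb6 and Psmb7, with 95% intervals from the edgeR fit. The intervals of B2m, H2-D1 and H2-K1 lie below 0 and that of H2-T23 ends at -0.013, those of Tap1 and Psmb9 span several log2 units, and Psmb10 lies with the constitutive subunits.

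Set side by side, the 7 members that work on or in membranes had a median log2 fold of -1.25 and the 3 cytosolic immunoproteasome subunits one of -0.94, where the median of all genes tested was 0.0006. Both cuprizone libraries lay below both mock libraries for 6 of the 7 and for 2 of the 3, as they did for 18.9% of all genes tested, and 8 of 10 did so with TMM scaling too (22.5% of all genes). The medians say little about a difference between these sets, because that of the 3 subunits moved to -0.14 without cuprizone replicate 2 and to -0.24 without mock replicate 1, and no test of the difference was made on genes chosen with results known. Summed levels weigh the abundant genes: the 7 membrane members together had 209 and 241 CPM in cuprizone and 416 and 580 CPM in mock libraries, and the 3 subunits 94.9 and 79.1 CPM in cuprizone and 102 and 101 CPM in mock libraries. The cuprizone mean was 45.2% of the mock mean for the first sum and 85.8% for the second, which is almost all Psmb10.

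Ratios within a library do not depend on scaling. For each count of Psmb10 there were 1.25 and 1.49 counts of B2m in cuprizone libraries against 2.32 and 2.76 in mock libraries. The same ratio for H2-D1 was 0.622 and 0.938 in cuprizone against 1.31 and 2.44 in mock libraries, and for H2-K1 0.167 and 0.228 in cuprizone against 0.365 and 0.425 in mock libraries. Those 3 ratios did not overlap between groups. That of Tapbp did, at 0.251 and 0.401 in cuprizone and 0.334 and 0.508 in mock libraries. These ratios were chosen after the values had been seen, and the share of all genes whose ratio to Psmb10 separates the groups was not counted. On CPM, both cuprizone libraries lay below both mock libraries for 18.9% of all genes tested.

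Levels of different genes were compared per kilobase of merged exons. In cuprizone libraries B2m came first with a mean of 129.6 ± 1.56 CPM per kilobase (SD, n = 2), then Psmb10 with 48.1 ± 5.38, H2-D1 with 24.4 ± 4.36, Tapbp with 7.24 ± 1.57 and H2-K1 with 5.45 ± 0.592, with no overlap between neighbours. In mock libraries B2m had 271 ± 28.1 (SD, n = 2), followed by H2-D1 with 66.8 ± 27.2 and Psmb10 with 54.0 ± 1.04, which overlapped, and then by H2-K1 with 12.4 ± 1.10 and Tapbp with 10.7 ± 2.90, which also overlapped. The remaining 5 genes had means from 0.344 to 1.08 in cuprizone and from 0.268 to 3.13 in mock libraries. In cuprizone libraries each of these overlapped its neighbour, and in mock libraries H2-T23, Psmb8 and Tap2 did.

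The constitutive counterparts were measured with the same counts. Psmb5 had 104 and 86.5 CPM in cuprizone and 120 and 100.3 CPM in mock libraries, Psmb6 415 and 397 CPM in cuprizone and 481 and 407 CPM in mock libraries, and Psmb7 140 and 143 CPM in cuprizone and 148 and 145 CPM in mock libraries. Their log2 folds were -0.28 (SE 0.19), -0.20 (SE 0.15) and -0.12 (SE 0.16), with edgeR adjusted p values of 0.633, 0.663 and 0.841. Of these, Psmb5 and Psmb6 overlapped between groups on library totals. With TMM scaling they did not, and all 3 lay lower.

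The log2 ratio of the summed inducible to the summed constitutive subunits was -2.80 and -2.98 in cuprizone libraries against -2.88 and -2.69 in mock libraries. The groups overlapped, and the difference of -0.10 was within the replicate SD of 0.13. By pair, and with 0.5 CPM added to each value, the log2 ratio of Psmb10 to Psmb7 was -0.66 and -0.92 in cuprizone against -0.67 and -0.68 in mock libraries. That of Psmb8 to Psmb5 was -4.61 and -4.43 in cuprizone against -4.40 and -3.44 in mock libraries, and only there did the groups not overlap, by a gap of less than 0.1. That of Psmb9 to Psmb6 was -7.11 and -9.63 in cuprizone against -7.04 and -7.73 in mock libraries.

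**Figure D3:**
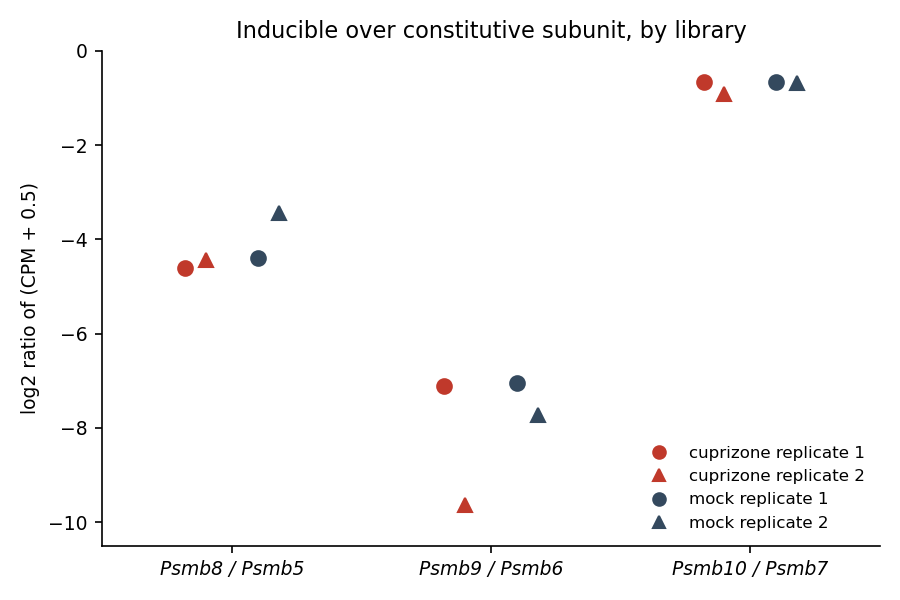
Log2 ratio of each immunoproteasome subunit to the constitutive subunit it replaces, from CPM with 0.5 added, in the 4 libraries. Psmb10 is close to Psmb7 in level in all 4 libraries, Psmb8 and Psmb9 are far below their counterparts, and the lowest point is the cuprizone library with 0 counts of Psmb9.

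The wider machinery was read from lists of genes with known roles in the pathway. In these lists neither the main edgeR fit nor limma-voom called a gene after adjustment. DESeq2 called 3 genes of peptide loading and ER trimming lower (Canx, Pdia3 and Calr), where it called 2.85% of all genes lower, and 1 regulator higher (Jak1), where it called 1.67% higher. EdgeR called Canx lower among all genes with a count (adjusted p = 0.0196), where it called 0.588% of them lower. Of the 7 genes of peptide loading and ER trimming, all 7 had negative log2 folds, with a median of -0.79, and 4 had an unadjusted p under 0.05, where 49.9% of all genes had a negative fold and 7.04% were lower at such a p. Canx, the lectin chaperone calnexin that holds new heavy chains, had 394 and 344 CPM in cuprizone against 631 and 768 CPM in mock libraries, and its log2 fold was -0.99 (SE 0.16, edgeR adjusted p = 0.123). Pdia3, the oxidoreductase of the loading complex, had 289 and 223 CPM in cuprizone against 427 and 417 CPM in mock libraries, and its log2 fold was -0.79 (SE 0.17, edgeR adjusted p = 0.181). For both genes the groups did not overlap, and DESeq2 called both lower, with adjusted p = 2.67e-06 and 0.00140.

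The 6 cytosolic peptidases, which trim or destroy peptides, all had positive log2 folds with a median of 0.36, and 1 had an unadjusted p under 0.05. Of all genes tested, 49.9% had a negative fold and 5.73% were higher at such a p. Of the peptidases Npepps, the puromycin-sensitive aminopeptidase, had 151 and 139 CPM in cuprizone against 71.2 and 104 CPM in mock libraries (log2 fold 0.65, SE 0.22, edgeR adjusted p = 0.312), and Tpp2, the giant tripeptidyl peptidase, 70.0 and 67.8 CPM in cuprizone against 46.7 and 52.6 CPM in mock libraries (log2 fold 0.40, SE 0.20, edgeR adjusted p = 0.470). The most abundant peptidase, the leucine aminopeptidase Lap3, stood at 0.04 (SE 0.17). The 11 shared subunits of the proteasome core had folds from -0.25 to 0.07 with a median of -0.12, and the most abundant were Psmb1 at -0.25 (SE 0.15) and Psma7 at -0.12 (SE 0.16), while Psmb3 was at -0.21 (SE 0.15). Of the 9 activators and assembly factors, with a median of -0.06, the interferon-inducible activator subunits Psme1 and Psme2 stood at -0.30 (SE 0.21) and -0.20 (SE 0.19), the assembly chaperone Pomp at -0.21 (SE 0.19) and the activator Psme4 at 0.53 (SE 0.34).

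**Figure D4:**
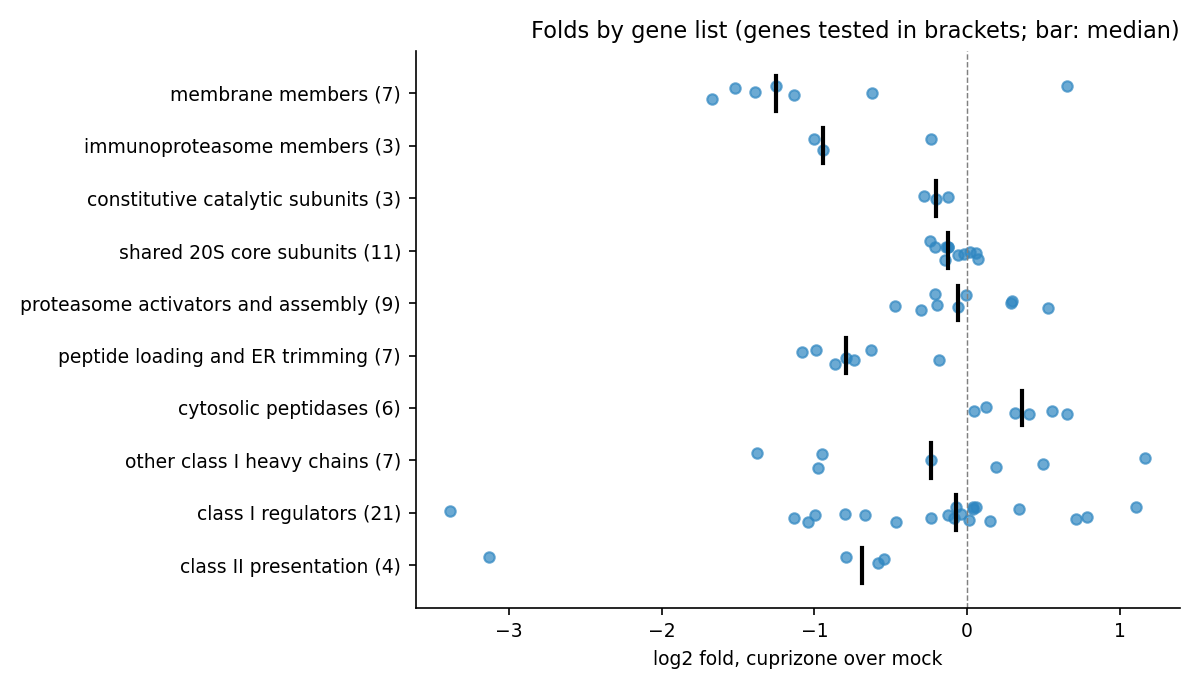
Log2 folds, cuprizone over mock, of every tested gene in each list (points, spread vertically for legibility) with the list's median (bar); the number tested is in brackets. Membrane members and genes of peptide loading lie mostly left of 0, core proteasome subunits close to it, and all cytosolic peptidases right of it.

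Of 18 other class I-like genes, 7 passed the filter on low counts, 3 with a positive and 4 with a negative log2 fold. Their median log2 fold was -0.23, and 1 was lower at an unadjusted p under 0.05 by edgeR (7.04% of all genes). Fcgrt, the neonatal Fc receptor that also pairs with B2m, had 20.2 and 13.3 CPM in cuprizone against 28.3 and 33.1 CPM in mock libraries, and its log2 fold was -0.95 (SE 0.32, edgeR adjusted p = 0.311). The non-classical heavy chain H2-T22 stood at -0.98 (SE 0.47) and Mr1, which presents microbial vitamin metabolites, at -0.23 (SE 0.64). Of the 10 class II genes, 4 passed the filter, all with negative folds. The most abundant, H2-DMa, a peptide editor of class II, had 18.7 and 16.3 CPM in cuprizone against 36.2 and 21.5 CPM in mock libraries, and its log2 fold was -0.79 (SE 0.35, edgeR adjusted p = 0.423), and the class II chain H2-Eb1 had 0 and 11 counts in cuprizone against 42 and 44 in mock libraries.

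Among 21 tested regulators of the pathway the median log2 fold was -0.07, with 2 lower and 2 higher at an unadjusted p under 0.05, close to the shares of all genes (7.04% lower and 5.73% higher). Jak1, a kinase of interferon receptors, had 172 and 207 CPM in cuprizone against 94.3 and 126 CPM in mock libraries (log2 fold 0.71, SE 0.21, edgeR adjusted p = 0.261). Ifnar1, of the type I interferon receptor, had 12.2 and 11.9 CPM in cuprizone against 25.9 and 21.4 CPM in mock libraries (log2 fold -1.04, SE 0.32, edgeR adjusted p = 0.268), and Ifngr2, of the interferon gamma receptor, 70.0 and 50.1 CPM in cuprizone against 90.1 and 91.5 CPM in mock libraries (log2 fold -0.67, SE 0.22, edgeR adjusted p = 0.301). Nlrc5, the transactivator of class I genes, had 0 and 1 counts in cuprizone and 0 and 6 in mock libraries and was not tested.

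By the root mean square difference of centred log2 CPM over the 4 libraries, the genes most like B2m among 9438 with a mean of at least 10 CPM included Tmem179, Ccdc47, Ero1lb and Vopp1, at 0.017 to 0.049. H2-K1 ranked at 31 in that order, with 0.092, H2-D1 at 687, Tapbp at 770 and Psmb10 at 2091. With 4 libraries many genes come close to any given pattern, so this is a description of these libraries.

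Markers of microglia, which can carry class I molecules too, had lower sums in cuprizone libraries. The 15 microglia markers summed to 449 and 519 counts in cuprizone libraries and 972 and 1240 in mock libraries, or 0.00206% and 0.00218% of counts in cuprizone against 0.00440% and 0.00585% in mock libraries. In both cuprizone libraries Cx3cr1, Aif1, Fcer1g, Itgam and Ptprc were at 0, and in mock libraries Itgam was. B2m alone had 2413 and 2678 counts in cuprizone and 4781 and 5311 in mock libraries. The part of microglial RNA in the class I and class II folds was not tested.

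Endothelial markers, 10 in all, summed to 112 and 422 counts in cuprizone and 235 and 246 in mock libraries, so the groups overlapped, and Cdh5 and Tie1 were at 0 in all 4 libraries. Pericyte and fibroblast markers summed to 357 and 387 counts in cuprizone against 1172 and 586 in mock libraries, and Rgs5, a pericyte gene, had 114 and 253 in cuprizone against 548 and 381 in mock libraries. Pdgfrb, another pericyte gene of the list, had the opposite order, with 94 and 86 counts in cuprizone against 56 and 27 in mock libraries. Among 10 T and NK cell markers Cd3d, Cd3e, Cd8a, Cd8b1, Nkg7, Gzmb and Klrd1 were at 0 in all 4 libraries. Cd4 had 113 and 201 counts in cuprizone and 0 and 37 in mock libraries. Trac had 30 and 25 in cuprizone and 19 and 6 in mock libraries. The list summed to 143 and 226 counts in cuprizone and 19 and 45 in mock libraries. The 10 oligodendrocyte markers made up 1.05% and 1.36% of counts in cuprizone and 1.32% and 1.53% in mock libraries. The part of these cells in the folds was not tested either.

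**Figure D5:**
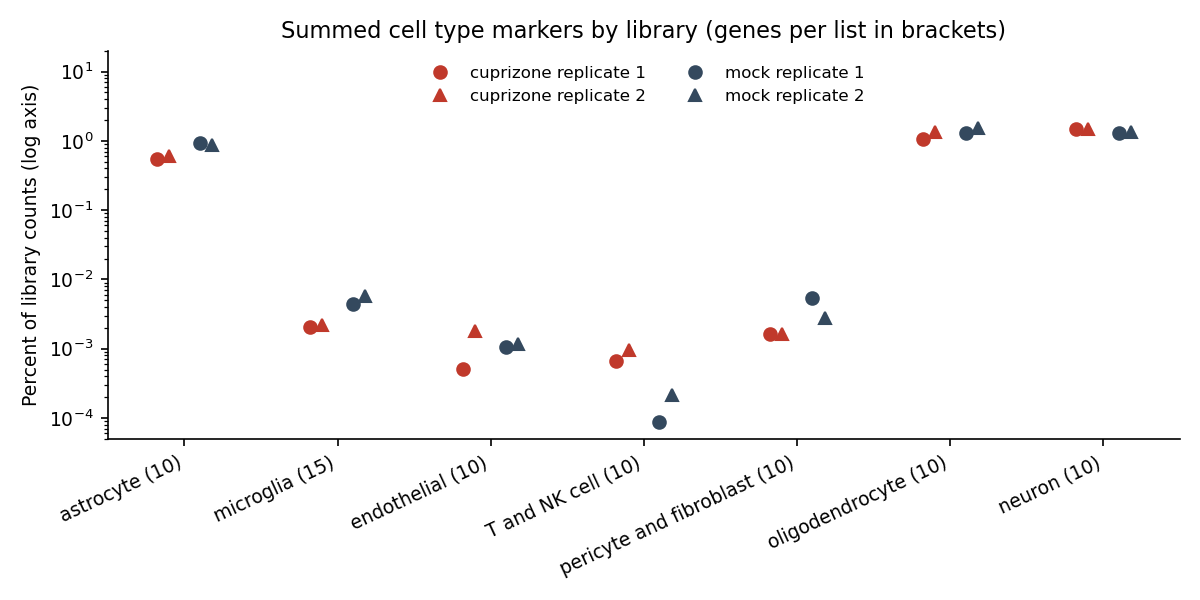
Summed counts of each cell type marker list as a percentage of library counts (log axis) in the 4 libraries. Neuron and oligodendrocyte lists stand above the astrocyte list, microglia markers are lower in both cuprizone libraries, and T and NK cell markers are the scarcest list in both mock libraries.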

How the data were processed

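Per the submitters' processing notes, the authors' tools were STAR 2.5.4b together with FastQC 0.11.9 and featureCounts 1.6.0, and the build was GRCm38 (mm10). The authors deposited a table of raw counts per library, not normalized. Per the labels' protocols, RNA with an integrity number above 8 went into a low-input library kit. Symbols were found for 55144 of 55471 ids, and coordinates and exon lengths come from GENCODE M21.

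Differences in counts were assessed by the quasi-likelihood test of edgeR 4.0.16 under R 4.3.3 (filterByExpr, TMM, glmQLFit with robust estimation and legacy dispersions, glmQLFTest, 2-sided, Benjamini-Hochberg over 15816 genes, threshold 0.05) on all 4 libraries without covariates. The SE is the log2 fold divided by the square root of F. The steps were tested on simulated data with the same dispersion for all genes, which does not show how they perform on these libraries. Alternatives were DESeq2 1.42.0, limma-voom (limma 3.58.1), other scalings, filters and dispersions, a replicate block and leaving out each library. CPM are on library totals. Replicates differed by more than sampling noise (chi-square per degree of freedom 56.5 for cuprizone, 35.1 for mock). The labels do not say whether a library is 1 animal or several, so p-values measure only the spread between these libraries.

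The members, lists, markers and tests were chosen with earlier results of these data known. The rule for genes named beyond the members and Psmb5, Psmb6 and Psmb7 took, per list, the 2 most abundant and the 2 with the smallest p, the most abundant marker of each cell type, and the 5 genes most like B2m. Nlrc5, Calr, Pdgfrb, Trac, the overlapping genes, the markers at 0 and the 9-base motif cores were added after values were seen. Some genes that this rule takes are not reported here, and the markers Aldoc and Snap25 enter as part of sums. Nrdc was matched under its older symbol Nrd1.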

Additional observations from a re-analysis of the deposited data

How the results depend on the processing

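No alternative called a member higher. The count of genes called, 13 in all, was 191 with every gene that had a count, 68 at a mean CPM of at least 1, 51 with bias-adjusted dispersions, 715 with DESeq2, 56 with limma-voom, and 5 to 123 with 1 library left out (5 without either mock replicate, 26 without cuprizone replicate 2, 123 without cuprizone replicate 1). The count of members called, 0, was 2 with every gene that had a count (H2-D1 and B2m), 1 at a mean CPM of at least 1 (B2m), 3 with DESeq2 and 1 with limma-voom; it was 0 with bias-adjusted dispersions, each other scaling and each library left out. The median of the membrane members ran from -1.38 to -0.93, and that of the immunoproteasome members from -1.05 to -0.14, with 1 library left out. Over those runs the difference in log2 subunit ratio ran from -0.20 to -0.0081, and it was -0.57 as the mean of pairwise ratios. Uncalled folds that changed sign were those of Tap1 with limma-voom (-2.06) and the replicate block (-1.48), and, with 1 library left out, of Tap1 (-8.03 to 1.65), Psmb9 (-8.71 to 0.055), Mr1 (-1.27 to 0.36), Esam (-0.79 to 0.21), Pomp (-0.47 to 9.47e-05) and Lap3 (-0.060 to 0.14). The labels give no sign that replicate numbers pair libraries across groups, and deviations of the first replicates had a correlation of -0.018 over genes. With the replicate block, 10 genes and 0 members were called, and B2m had a log2 fold of -1.13 (edgeR adjusted p = 0.119). Fewer than 200 counts a library behind Tap1, Tap2, Psmb8 and Psmb9 limit what can be said of them.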
